A study of Mus musculus with 30 samples.

Results

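Among the tumors grown from the MCA-948 line, the 4 whose titles carry the letter W (W-1D, W-2D, W-1G and W-2G) were compared with the 4 whose titles carry the letter a (a-1G, a-2D, a-2G and a-R). These are 8 of the 30 tumors sequenced, and they were chosen by their titles alone. Neither the sample labels nor the study's text states what the letters mean, so each is used here only as a name. The study set out to learn what makes a tumor sensitive to NK1.1+ cells, and its design text says that the lines were grown in wild-type and in NK cell-deficient mice, but does not tie either host to a letter. MCA-948 is a fibrosarcoma cell line derived from 1 primary tumor induced with methylcholanthrene (MCA), a carcinogen injected under the skin. All 8 tumors share the strain label Ncr1Cre R26DTA on a C57BL/6 background, growth in C57BL/6 mice and a label of NK cell sensitivity. No age, time or treatment is labelled. Since all 8 come from a single line, spread between them does not cover spread between fibrosarcomas.

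Hematopoietic cells were removed from each tumor with CD45 beads before RNA was extracted, and counts were assigned to genes of mouse genome build GRCm38. Totals lay between 29765480 counts in W-2G and 46537062 in a-1G, so that 3 counts, the limit that a count of 0 allows, came to 0.0619 to 0.104 CPM, that is, counts scaled to a library of 1000000. This limit covers counting error only. Collagen Col1a1, a product of fibroblasts, averaged 1859 CPM in the W tumors and 2393 CPM in the a tumors. Each tumor is taken as a separate sample, as its title gives it, and the p-values measure the spread between these tumors.

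Natural killer (NK) cells and type 1 innate lymphoid cells (ILC1) are lymphocytes that carry the receptor NKp46, encoded by Ncr1. NK cells kill target cells with perforin and granzymes, whereas the study describes ILC1 as only weakly cytotoxic. Fibroblasts and the tumor cells derived from them build the extracellular matrix from collagens, proteoglycans and matricellular proteins such as periostin. They also release chemokines, among them CXCL12, which draws and holds cells that carry the receptor CXCR4.

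The libraries stood apart in ways that do not follow the letters. Their numbers fall into 3 runs: the 4 W tumors, a-1G and a-2D belong to the third run, whereas a-2G and a-R belong to the second run. Between the a tumors of the 2 runs, 2565 of 14638 genes tested (17.5%) were called, 1273 higher and 1292 lower in the second run, at an adjusted p under 0.05 (edgeR's quasi-likelihood test with Benjamini-Hochberg adjustment). All 5 erythroid genes were called higher in the second run, as were 20 of 22 genes of hypoxia and glycolysis. The summed level of the erythroid list was 2886 CPM in a-2G and 1860 CPM in a-R against 111 in a-1G, 64.7 in a-2D and 130 to 673 CPM in the W tumors. The count was 537 without a-2G, 531 without a-R, 780 without a-1G and 5 without a-2D. With 2 tumors in each, run and animal cannot be told apart.

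The correlation of log2 CPM over the genes tested had a median of 0.983 over the 28 pairs of tumors, with a range of 0.967 to 0.993. In a principal component analysis the first component held 35.0% of the variance and the second 28.8%. On the first component the W tumors lay between -41.8 and -0.82 and a-2G at -14.4, whereas a-1G lay at 23.6, a-2D at 34.4 and a-R at 39.0. The first component therefore placed 3 of the 4 a tumors beyond every W tumor, and a-2G among the W tumors. Endothelial and pericyte genes such as Mmrn2, Sox7 and Rgs5 weighed on its a side, and Gzmc, Klrk1, Gzmb and Il2rb, genes of cytotoxic lymphocytes, on its W side. On the second component a-2G (38.2) and a-R (41.9) stood apart from the other 6 tumors (-25.1 to 3.63), with hemoglobin and other red cell genes at that end.

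**Figure D1:**
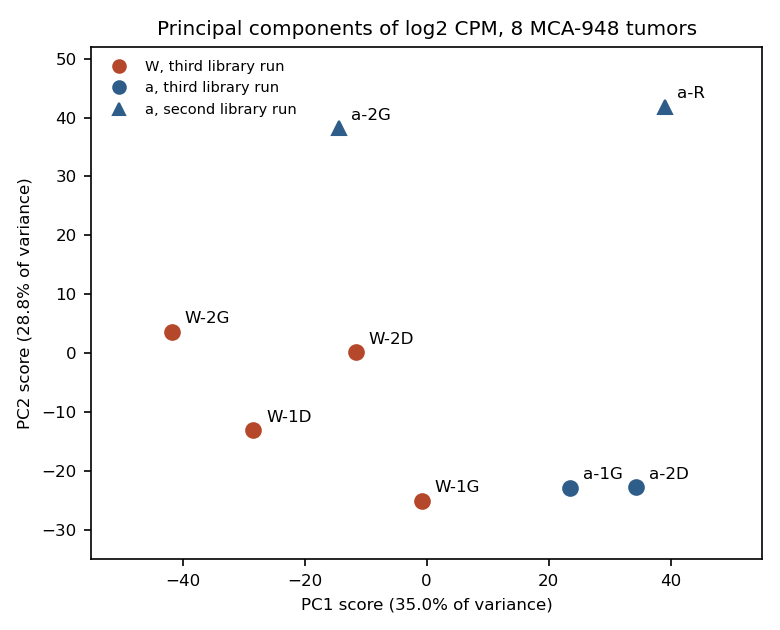
Principal components 1 (35.0% of variance) and 2 (28.8%) of log2 CPM in the 8 MCA-948 tumors, with each point a tumor, coloured by title letter and shaped by library run. The 2 a tumors of the second run (38.2 and 41.9) lie apart from the other 6 on the second component, and the letters overlap on the first through a-2G.

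Comparing the letters over all 8 tumors, 8 of 14638 genes (0.0547%) were called, of which 7 were lower and 1 higher in the W tumors. The 7 lower genes were Dpt, Postn, Mfap4, Cdh11, Cxcl12, Plcb1 and Fhl1, and the higher gene was Atp6v0d2. Dermatopontin, periostin and the microfibril-associated protein encoded by Mfap4 are proteins of the extracellular matrix, cadherin-11 is an adhesion molecule of mesenchymal cells and CXCL12 is a chemokine. The 7 genes were lower by 1.04 to 2.36 on the log2 scale. The median difference over all genes tested was -0.01, and 1677 genes had an unadjusted p under 0.05, 648 higher and 1029 lower in the W tumors. In none of the 8 genes did the groups overlap, which held for 6.19% of all genes tested. The test that called them favors such genes, so that this is a description. In these bulk samples, fewer cells of a type and less RNA per cell cannot be told apart.

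**Figure D2:**
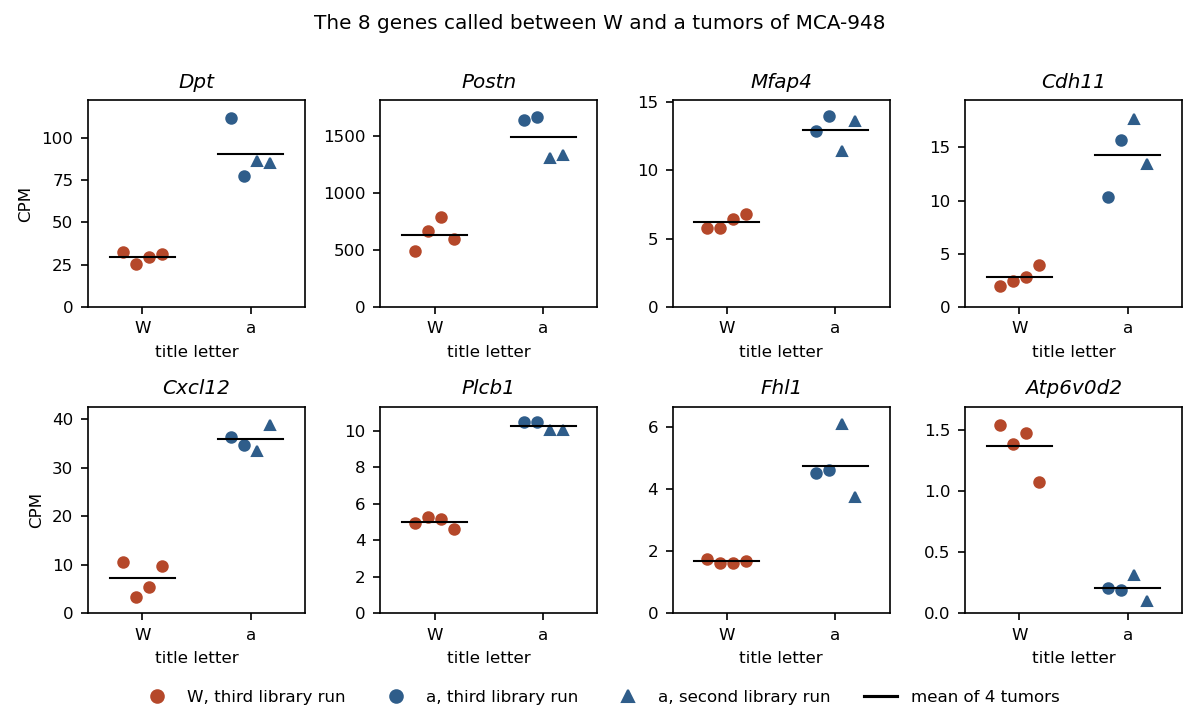
CPM of the 8 genes called between the letters in each MCA-948 tumor, with 1 panel per gene, circles for the third library run, triangles for the second and a line at the mean of each group of 4. In each panel the 4 W tumors and the 4 a tumors do not overlap, and the a tumors of both runs lie on the same side.

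Dpt (chr1:164796644-164824266, + strand) encodes dermatopontin, a small protein that binds decorin and collagen fibrils in the matrix. Its level was 32.5 CPM in W-1D, 29.2 in W-2D, 25.4 in W-1G and 31.5 in W-2G, against 112 in a-1G, 77.4 in a-2D, 86.2 in a-2G and 85.1 in a-R. Even the lowest a tumor was above every W tumor. The means were 29.7 ± 3.15 and 90.2 ± 15.02 CPM (SD, n = 4 each), a log2 difference of -1.60 (SE 0.13, edgeR adjusted p = 0.00506). Dpt was called under each of the 10 other fits, filters and scalings tried and whichever tumor was left out, with an adjusted p of 0.00392 to 0.033.

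Postn (chr3:54361109-54391037, + strand) encodes periostin, a matricellular protein that binds integrins and takes part in collagen crosslinking. It was at 489 CPM in W-1D, 784 in W-2D, 662 in W-1G and 596 in W-2G, and at 1645 in a-1G, 1668 in a-2D, 1308 in a-2G and 1331 in a-R. The means of 633 ± 124 and 1488 ± 195 CPM differed by -1.23 on the log2 scale (SE 0.16, edgeR adjusted p = 0.0345). Within each letter the spread was narrower than the gap between the letters.

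Mfap4 (chr11:61485431-61488900, + strand), whose product associates with elastin and microfibrils, lay between 5.78 and 6.81 CPM in the W tumors and between 11.4 and 14.003 CPM in the a tumors. Its log2 difference was -1.07 (SE 0.12, edgeR adjusted p = 0.0188). Mfap4 overlaps Mapk7, a kinase gene on the opposite strand with up to 22.7 CPM, and the strand setting of the counting is not given in the sources used here. Mapk7 itself differed by 0.02 between the letters (adjusted p = 0.970).

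Cdh11 (chr8:102632095-102785642, - strand) encodes cadherin-11, through which mesenchymal cells adhere to each other. The W tumors had 2.00 CPM (W-1D), 2.82 (W-2D), 2.45 (W-1G) and 3.94 (W-2G), and the a tumors 10.3 (a-1G), 15.7 (a-2D), 17.7 (a-2G) and 13.5 (a-R). This was the largest difference among the 7 lower genes, -2.36 on the log2 scale (SE 0.24, edgeR adjusted p = 0.0161), from 14.3 ± 3.18 CPM in the a tumors to 2.80 ± 0.830 in the W tumors. At the same threshold Cdh11 was called under each of the 10 other fits, filters and scalings and in 4 of the 8 fits that left out a tumor, and it does not pass an adjusted p under 0.01.

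Cxcl12 (chr6:117168535-117181367, + strand) was at 10.6 CPM in W-1D, 5.30 in W-2D, 3.40 in W-1G and 9.68 in W-2G. The a tumors were closer to each other, with 36.3 CPM in a-1G, 34.6 in a-2D, 33.5 in a-2G and 38.7 in a-R. The means were 7.23 ± 3.44 and 35.8 ± 2.28 CPM, and the log2 difference of -2.31 (SE 0.31) only just passed the threshold (edgeR adjusted p = 0.0469). The summed level of 12 endothelial markers was 61.2 CPM in W-1D, 119 in W-2D, 204 in W-1G and 45.0 in W-2G. It was 338 CPM in a-1G, 409 in a-2D, 82.0 in a-2G and 716 in a-R. The part of endothelial cells in the difference of Cxcl12 was not tested.

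Plcb1 (chr2:134786067-135475258, + strand) encodes a phospholipase C that acts downstream of G protein-coupled receptors. It lay at 4.63 to 5.25 CPM in the W tumors and at 10.04 to 10.5 CPM in the a tumors, with a log2 difference of -1.04 (SE 0.11, edgeR adjusted p = 0.0161). Fhl1 (chrX:56731787-56793346, + strand), a LIM domain protein abundant in muscle, lay at 1.61 to 1.74 CPM in the W tumors and at 3.73 to 6.11 CPM in the a tumors, a log2 difference of -1.51 (SE 0.19, adjusted p = 0.0345). Neither gene had overlapping ranges between the letters.

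Atp6v0d2 (chr4:19876841-19922605, - strand), a subunit of the proton pump of lysosomes that is abundant in osteoclasts and macrophages, was the gene that rose. It was low in every tumor, at 1.54 CPM in W-1D, 1.47 in W-2D, 1.38 in W-1G and 1.07 in W-2G, against 0.206 in a-1G, 0.190 in a-2D, 0.315 in a-2G and 0.0999 in a-R. Its log2 difference was 2.71 (SE 0.32, edgeR adjusted p = 0.0263), resting on 3 to 12 counts in each a tumor. Atp6v0d2 passed the filter on low counts through the W tumors, so that its lack of overlap is a description. With a filter of a mean of at least 1 CPM it was not tested, and 0 genes were called higher. The myeloid list, which covers macrophages, overlapped between the letters, with a summed level of 61.9 to 170 CPM in the W tumors and 41.9 to 203 CPM in the a tumors.

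The 4 genes with the next smallest p among those higher in the W tumors did not pass the adjusted threshold. They were Ptk2b, a focal adhesion-related kinase (20.9 ± 2.12 against 12.7 ± 0.973 CPM, edgeR adjusted p = 0.0729), and Slc4a7, a bicarbonate transporter (139 ± 7.32 against 95.1 ± 8.56 CPM, adjusted p = 0.0774). Cep170b, a relative of a centrosome protein, was at 57.9 ± 2.45 against 37.2 ± 4.64 CPM (adjusted p = 0.0774), and Kcnn4, a calcium-activated potassium channel, at 75.6 ± 2.93 against 55.01 ± 3.51 CPM (adjusted p = 0.0937).

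How firmly the 8 genes stand depends on the tumors used. Without a-2G the number called was 193, without a-R it was 6, and without any 1 of the other 6 tumors it was 1 or 2. Dpt was called in all 8 of these fits, Cdh11 in 4, Plcb1, Fhl1 and Atp6v0d2 in 2 each, and Mfap4, Postn and Cxcl12 in 1 each. All 8 genes kept their direction in every fit. Over the other fits, filters and scalings, Plcb1 was called in 9 of 10, and Fhl1 and Postn in 8 of 10. Mfap4 and Cxcl12 were called in 7 of 10, and Atp6v0d2 in 6 of 9.

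Of the 8 genes, 5 have an entry in RefSeq's promoter table (build GRCm38.p6), with 7 start sites among them, and the 250 bases before each start were searched on both strands for 4 short motifs. The TATA box TATAAA lay in 2 of the 7 (Fhl1 and Postn) and in 12.4% of all 32851 promoters, and the GC box GGGCGG in 2 of the 7 (Cxcl12 and Plcb1) and in 32.7% of all. The TATA match of Fhl1 is on the opposite strand (TTTATA) and begins 156 bases before the start. The AP-1 motif TGANTCA lay in 0 of 7 and 6.75% of all, and the E-box CACGTG in 0 of 7 and 6.02% of all. A match is a description of letters and not a bound site. The promoters of 2 matrix genes are shown, Dpt as the gene called in every fit and Postn as a gene with a TATA box. The TATA box is in capitals in that of Postn (chr3:54360857-54361106, + strand), where it begins 26 bases before the start, and that of Dpt (chr1:164796413-164796662, + strand) holds none of the 4 motifs.
Postn: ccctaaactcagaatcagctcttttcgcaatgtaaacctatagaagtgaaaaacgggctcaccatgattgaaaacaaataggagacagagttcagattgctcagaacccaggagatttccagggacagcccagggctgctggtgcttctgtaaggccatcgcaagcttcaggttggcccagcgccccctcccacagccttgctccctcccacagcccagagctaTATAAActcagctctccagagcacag
Dpt: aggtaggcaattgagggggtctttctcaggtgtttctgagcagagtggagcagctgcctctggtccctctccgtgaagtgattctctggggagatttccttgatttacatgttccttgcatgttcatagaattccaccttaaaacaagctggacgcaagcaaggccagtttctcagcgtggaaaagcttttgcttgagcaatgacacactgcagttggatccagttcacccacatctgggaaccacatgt

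Within the third run alone, which holds the 4 W tumors and 2 of the a tumors, 39 of 14638 genes (0.266%) were called, 18 higher and 21 lower in the W tumors. Of the 8 genes above, 7 were among them, and the 7 lower genes had log2 differences of -2.29 to -1.07. Cxcl12 was at -2.29 and was not called (edgeR adjusted p = 0.0801). The count of 39 was 2 without a-1G, 4 without a-2D, 104 without W-1G, 158 without a-R and 197 without a-2G. Between the a tumors of the 2 runs, 0 of the 8 genes were called by edgeR's quasi-likelihood test and 0 had an unadjusted p under 0.05, with differences of -0.33 to 0.26 on the log2 scale and a smallest adjusted p of 0.228. Of these genes, Dpt was at 77.4 to 112 CPM over the a tumors of both runs. The 8 genes were called by a test over the same a tumors, which favors genes whose a tumors lie close together. The small differences between runs are therefore a description.

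The remaining 32 genes called within the run were not called over all 8 tumors. For 24 of the 39 the a tumors of the 2 runs also differed (called between runs). Both comparisons share a-1G and a-2D, so that this count is a description. Aspn, which encodes the collagen-binding proteoglycan asporin and was chosen after its values were seen, is one of the 24. It was at 121 CPM in a-1G and 123 in a-2D, at 47.2 in a-2G and 40.5 in a-R, and at 39.1 to 46.5 CPM in the W tumors. The 2 a tumors of the second run were therefore near the W tumors and not near the other a tumors.

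Genes of glycolysis and lactate export were also among the 24. Pfkp, a phosphofructokinase, was higher in the W tumors within the run (0.92 on the log2 scale, edgeR adjusted p = 0.00550), and so was Slc16a3, the lactate exporter MCT4 (0.85, adjusted p = 0.0114). Slc16a3 was at 128 CPM in a-1G and 150 in a-2D, 244 in a-2G and 227 in a-R, and 224 to 272 CPM in the W tumors. Of the 22 genes of hypoxia and glycolysis, 22 had a positive difference within the run (median 0.60), while the median over all 8 tumors was -0.04. Nt5e, the enzyme CD73 that forms adenosine, was also higher within the run (1.14, adjusted p = 0.0222) and overlapped between the letters over all 8 tumors.

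In 24 of the 39 genes the letters did not overlap over all 8 tumors, and Plat and Ccl11 were among these. Plat, the tissue plasminogen activator, was at 184 to 228 CPM in the W tumors and 300.0 to 329 CPM in the a tumors, with a log2 difference of -0.60 within the run (edgeR adjusted p = 0.0308). Ccl11, the chemokine eotaxin, was at 0.258 to 0.566 CPM in the W tumors and at 1.88 in a-1G, 2.03 in a-2D, 0.603 in a-2G and 1.20 in a-R (-2.25 within the run, adjusted p = 0.0342). Igfbp5, a binding protein of insulin-like growth factors chosen after its values were seen, was another. Its W tumors lay at 4.81 to 11.1 CPM and its a tumors at 78.5 (a-1G), 111 (a-2D), 21.9 (a-2G) and 34.8 (a-R), which gave -3.58 within the run (adjusted p = 0.0148) and -2.96 over all 8 tumors (adjusted p = 0.102).

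Gene lists were described by their counts and medians, beside 51.1% of all genes tested that had a negative difference. All 23 genes of collagens and matrix were lower in the W tumors, with a median of -0.51, and only Postn was called. Their summed level was 19220 to 24684 CPM in the W tumors and 25231 to 32869 CPM in the a tumors, without overlap. Of the 23 genes, 6 had all 4 W tumors below all 4 a tumors, where 3.24% of all genes tested did. Besides Postn these were Col1a2 (1028 against 2181 CPM, edgeR adjusted p = 0.169), Col5a2 (378 against 573), Sparc (1264 against 1817), Loxl1 (46.1 against 82.4) and Thbs2 (279 against 478 CPM), with none of the 5 called by edgeR and their smallest adjusted p at 0.0774. DESeq2 called 6 of the 23 lower. Over the same tumors, 15 of 16 immediate early genes, which respond to stress and handling within minutes, had a negative difference (median -0.35). Of the mitochondrial genome, 11 of 11 genes tested had a positive one (median 0.30). Within the third run the medians were -0.06 for the immediate early, 0.64 for the mitochondrial and -0.53 for the matrix genes. Between the a tumors of the runs, all 16 immediate early genes were higher in the second run (median 0.56, 6 called). The part of the immediate early and mitochondrial genes in the difference of the matrix genes was not tested.

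Chemokines and cytokines gave a similar count. Of 19 genes tested, 16 had a negative difference, with a median of -0.56, and only Cxcl12 was called by edgeR, against 7 called lower by DESeq2. The summed level was 342 to 565 CPM in the W tumors and 617 to 752 CPM in the a tumors. In 6 of the 19 all W tumors were below all a tumors, among them Ccl2, which attracts monocytes (94.1 against 138 CPM, edgeR adjusted p = 0.269), and Cxcl1, which attracts neutrophils (163 against 264 CPM, adjusted p = 0.237).

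All 12 endothelial genes tested were also lower in the W tumors, by a median of -2.01, but with a wide spread and 0 called by edgeR's test, 11 having an unadjusted p under 0.05. DESeq2 called 1 and limma-voom 0. The summed endothelial level was 61.2 CPM in W-1D, 119 in W-2D, 204 in W-1G and 45.0 in W-2G, and 338 in a-1G, 409 in a-2D, 82.0 in a-2G and 716 in a-R. The letters overlapped through a-2G. Pecam1, the endothelial adhesion molecule CD31, was at 15.1 ± 12.2 against 64.2 ± 41.7 CPM (-2.09, adjusted p = 0.299). The 7 genes tested of the pericyte and smooth muscle list had a median of -1.20, and the summed level of its 9 genes overlapped, at 206 to 383 CPM in the W tumors and 164 to 403 CPM in the a tumors. The part of these cells in the difference of the matrix genes was not tested.

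**Figure D3:**
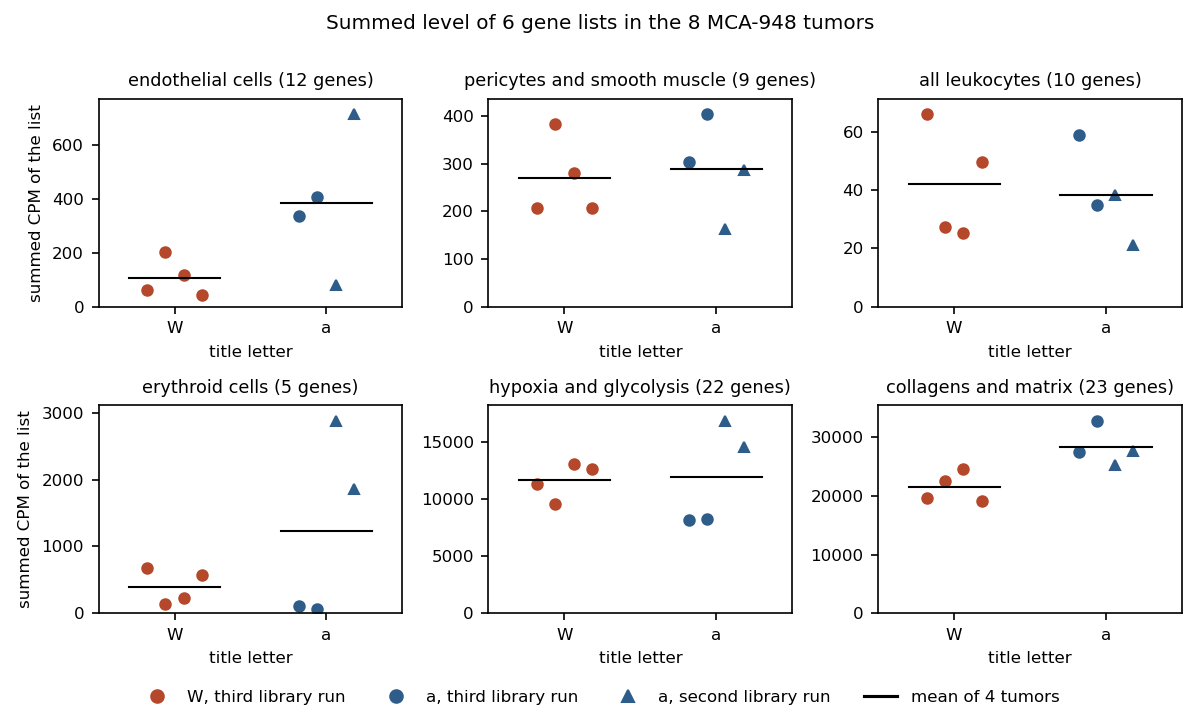
Summed CPM of 6 gene lists in the 8 MCA-948 tumors on linear axes from 0, with each point a tumor, coloured by letter and shaped by library run, and a line at the mean of 4 tumors. Collagens and matrix do not overlap between the letters, the endothelial list overlaps through a-2G (82.0 CPM), the erythroid and the hypoxia lists are highest in the 2 a tumors of the second run, and the leukocyte and pericyte lists overlap.

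No gene was called in 5 lists on how a tumor meets lymphocytes and on proliferation. The median difference was 0.06 for the 17 genes tested of the interferon-gamma response, 0.22 for 19 of the type I interferon response and -0.04 for 17 of antigen presentation by MHC class I. The 8 ligands of NK cell receptors that were tested had a median of -0.04, and 23 genes of proliferation one of 0.04. In these lists 0 genes were called over the 8 tumors by edgeR, DESeq2 or limma-voom, and edgeR gave an unadjusted p under 0.05 to 2, 0, 1, 2 and 1 of their genes in turn. Within the third run the medians were -0.17 for the interferon-gamma response, with 12 of 17 negative, 0.13 for type I, and -0.17 for MHC class I, with 12 of 17 negative. Between the a tumors of the runs they were -0.73, -0.35 and -0.48, lower in the second run, with 15 of 17, 14 of 19 and 16 of 17 genes negative. A further list, of immune suppression, did hold calls. Its 15 genes tested had a median of -0.02 over the 8 tumors. There edgeR and limma-voom called 0 of them, and DESeq2 called Lgals9 and Entpd1 lower. Each tool gave 3 of them an unadjusted p under 0.05. Within the third run edgeR called 1 of them higher.

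Transcripts of NK cells and ILC1 were scarce after the removal of CD45+ cells, and most had a higher mean in the W tumors. The list has 19 genes, of which 6 passed the filter on low counts and 13 did not. In 12 of the 19 every W tumor was above every a tumor, and in 0 of them below. This was so for 3 of the 6 genes tested, beside 2.94% of all genes tested, and for 9 of the 13 not tested, beside 1.03% of all untested genes with a count. Neither share is matched in level, as the untested genes reach down to 1 count. Klrk1, Gzmb and Gzmc passed the filter through the W tumors, with 89, 192 and 435 counts there against 4, 16 and 22 in the a tumors. Their lack of overlap is therefore a description. Of the 6 tested, 0 were called by edgeR or limma-voom, 4 had an unadjusted p under 0.05 in edgeR's test, and DESeq2 called Klrk1, Gzmc and Gzmb. Without the filter, 2 of the 19 were called (Klrk1, adjusted p = 0.0351, and Gzma, 0.00551), where 0.0321% of 28031 genes were called higher. Gzma, Gzmc and Klra8 were chosen after their values were seen.

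Ncr1, the gene of NKp46, was at 1.10 CPM in W-1D, 0.155 in W-2D, 0.189 in W-1G and 0.173 in W-2G, and had no count in any of the 4 a tumors. Taken against 3 counts per a tumor it was at least 5.03-fold higher in the W tumors, and at least 2.14-fold higher without W-1D. Klra8, an activating receptor of the Ly49 family, was likewise at 0 in the a tumors, and Ifng, the gene of interferon gamma, had 0 to 2 counts in the W tumors and 0 in the a tumors.

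Klrk1, which encodes the activating receptor NKG2D, was at 1.38 CPM in W-1D and 0.284 to 0.449 CPM in the other W tumors, and at 0 to 0.0524 CPM in the a tumors (log2 difference 4.42, SE 0.83, edgeR adjusted p = 0.107). Klrb1c, the gene of NK1.1, was at 0.103 to 0.563 CPM in the W tumors and 0 to 0.0813 CPM in the a tumors. Of the killing machinery, perforin (Prf1) was at 0.189 to 2.12 against 0 to 0.105 CPM, and granzyme B (Gzmb) at 0.449 to 3.43 against 0 to 0.165 CPM (3.64, SE 0.85, adjusted p = 0.206). Granzyme C (Gzmc) was at 7.37 CPM in W-1D and 1.32 to 1.64 CPM in the other W tumors, and at 0.0813 to 0.315 CPM in the a tumors (4.33, SE 0.75, adjusted p = 0.102).

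**Figure D4:**
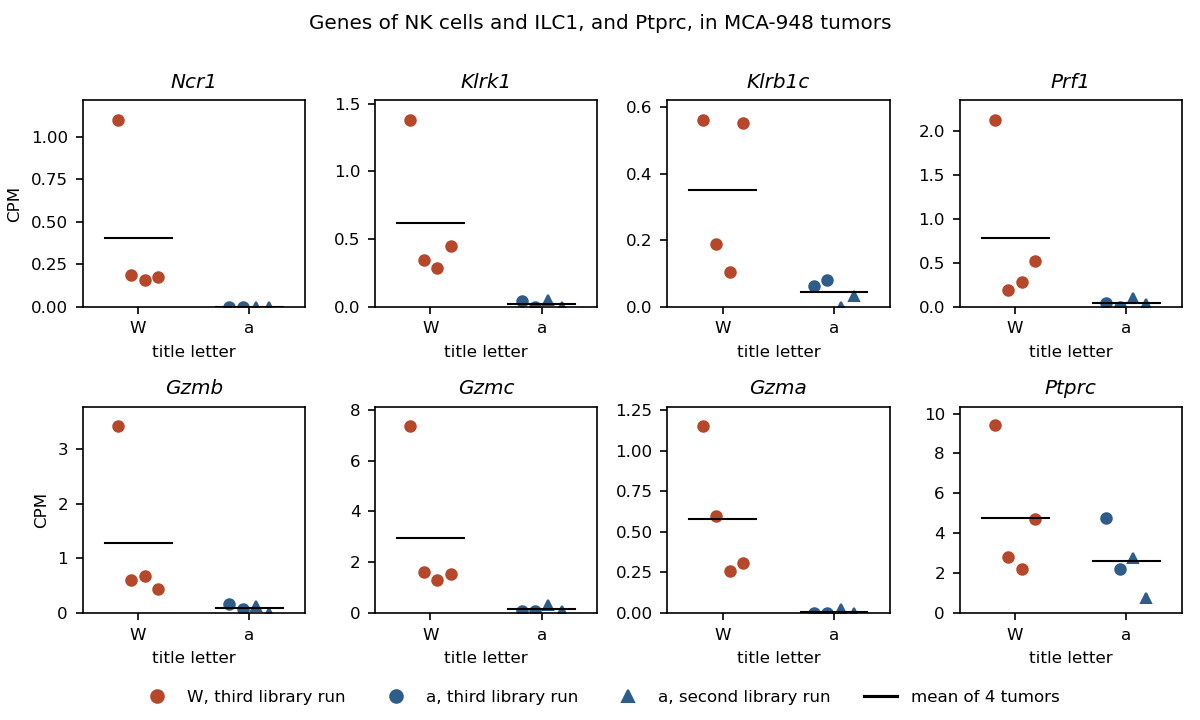
CPM of 7 genes of NK cells and ILC1 and of the pan-leukocyte gene Ptprc in each MCA-948 tumor, with a line at the mean of 4 tumors. W-1D is highest in all 8 panels, the other W tumors are above the a tumors for the 7 genes, and Ptprc overlaps between the letters. The 7 genes are among the 12 of the list's 19 in which every W tumor was above every a tumor.

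The level in W-1D stood apart from that of the other W tumors, being the highest of all 8 tumors for 15 of the 19 genes. Klra4 was at 30.8 to 37.6 CPM in the W tumors and 30.3 to 46.3 CPM in the a tumors, and Eomes at 2.58 to 5.47 and 2.33 to 2.66 CPM, so that both overlapped between the letters. Tbx21 (mean 0.277 against 0.218 CPM), Ccl5 (0.825 against 0.779 CPM), Klrc1, Klra7 and Ifng also lacked a full separation of the letters. Over all 19 genes the summed level overlapped, at 42.2 to 63.5 CPM in the W tumors and 33.7 to 50.5 CPM in the a tumors. Without Klra4 and Eomes, left out after their values were seen, the other 17 summed to 23.3 CPM in W-1D (911 counts). The other W tumors had 5.06 (W-2D), 5.60 (W-1G) and 6.19 CPM (W-2G), and the a tumors 1.53 (a-1G), 1.38 (a-2D), 1.97 (a-2G) and 1.10 CPM (a-R). In this sum of 17 genes, the 3 W tumors other than W-1D were above all 4 a tumors.

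Markers of other leukocytes were examined in the same tumors. Ptprc, the gene of CD45 itself, was at 9.42 CPM in W-1D, 2.22 in W-2D, 2.80 in W-1G and 4.70 in W-2G, and at 4.79 in a-1G, 2.19 in a-2D, 2.75 in a-2G and 0.732 in a-R (0.86 on the log2 scale, SE 0.57, edgeR adjusted p = 0.615). T cells share in part the killing program held in the NK list. Of the 17 genes of the T cell list itself, 2 had all W tumors above all a tumors. These were Trbc1 and Cd28, both untested, beside 1.03% of untested genes, a share that is not matched in level. The list's summed level was 1.21 to 3.79 against 0.891 to 2.00 CPM. The 10 leukocyte genes summed to 25.1 to 65.9 CPM in the W tumors and 21.1 to 58.9 CPM in the a tumors. How far the CD45 step removed each cell type in each tumor was not tested.

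The letters W and a are also found in MCA-969 (4 tumors each) and MCA-970 (3 each). W-1D and W-2D of MCA-969 are labelled as sensitive to NK cells, against the other 6 tumors of that line. The difference between letters was compared between lines in a fit of all 30 tumors. In that fit 18404 genes were tested, including all 19 of the NK list, 13 of which did not pass the filter over the MCA-948 tumors alone. Between the letters it called 6 of the 19 higher in the W tumors of MCA-948, 1 in MCA-969 and 13 in MCA-970. Over all genes tested it called 21, 3 and 27 higher in turn. The smallest groups of that fit hold 1 tumor, so its filter keeps a gene that is high enough in a single tumor. Members of the list may thus have entered through the W tumors where they are high, and these counts are a description. By edgeR's test of the difference between lines, 0 of the 19 were called, with a smallest adjusted p of 0.210 against MCA-969 and 0.380 against MCA-970. An unadjusted p under 0.05 was found for 2 and 3 of them. Gzmb averaged 0.540 CPM in the W tumors and 0.0638 in the a tumors of MCA-969, and 4.79 and 0.0835 CPM in those of MCA-970. Il2rb, a receptor chain for IL-2 and IL-15 chosen after its values were seen, differed by 2.78 in MCA-948 (edgeR adjusted p = 0.0260), 1.30 in MCA-969 (0.310) and 2.87 in MCA-970 (0.0580).

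The 8 genes called over the MCA-948 tumors were compared between lines in the same fit. The difference between letters in MCA-948 departed from that in MCA-969 for 71 genes (0.386%), 32 upward and 39 downward, among them 4 of the 8 genes. These were Dpt (-1.73, edgeR adjusted p = 0.0457), Cdh11 (-2.11, adjusted p = 0.00407), Cxcl12 (-2.20, adjusted p = 0.0136) and Atp6v0d2 (4.85, adjusted p = 0.0219). With library run as a covariate, 0 genes were called by edgeR and 1831 had an unadjusted p under 0.05. The count of 71 also moved with single tumors of MCA-948, to 621 without a-2D, 139 without a-2G, 18 without a-R, and 32, 38, 41 and 25 without W-1D, W-2D, W-1G and W-2G. Of the MCA-969 tumors, it moved to 339 without W-2G, 201 without W-R, 161 without W-2D, 44 without W-1D, 18 without a-1D and 23 without a-2D or a-R. W-1D and W-2D of MCA-969, the 2 tumors with the opposite sensitivity label, are in the second run and its other 6 tumors in the first. Without both, an alternative chosen after seeing the data, 44 genes were called, 25 of them among the 71. Cdh11 (-2.44, adjusted p = 0.00334) and Cxcl12 (-2.20, adjusted p = 0.0243) were then called, Dpt (-1.62, adjusted p = 0.0893) and Atp6v0d2 (4.195, adjusted p = 0.0869) were not, and Plcb1 was (-1.01, adjusted p = 0.0380). Since the 8 genes were picked for their difference in MCA-948, which enters each of these differences, the count of 4 is a description.

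Against MCA-970, all of whose tumors are in the second run, 5 genes (0.0272%) differed, namely Cdh11 (-2.58, edgeR adjusted p = 0.00328), Serpini1 (-1.31, adjusted p = 0.00653), Dmd (-1.88, adjusted p = 0.00653), Tmem159 (-1.82) and Hdx (2.19, adjusted p = 0.0239). The last 4 were named because the count was small, after their values were seen. Cdh11 averaged 474 ± 70.4 CPM in the W tumors and 406 ± 88.9 CPM in the a tumors of MCA-970, and 167 ± 60.5 and 198 ± 32.0 CPM in those of MCA-969, so that both groups of MCA-948 lay below every group of the other lines. Cxcl12 differed from MCA-970 by -2.13, which did not pass (adjusted p = 0.0822). The count of 5 became 16 without a-2G, 8 without a-2D and 9 without W-1D of MCA-948, and 3 without a-1D of MCA-970. With run as a covariate 5 genes were called, all lower, of which only Cdh11 and Dmd were among these 5.

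Only Postn, Mfap4, Cxcl12 and Fhl1 of the 8 genes had the sign of MCA-948 in both other lines. Postn differed between the letters by -0.27 in MCA-969 and -0.88 in MCA-970, and Mfap4 by -0.58 and -0.87. Dpt differed by 0.14 and -0.37, and Plcb1 by -0.27 and 0.09, so that each had the opposite sign in 1 of the lines. Cdh11 differed by -0.24 and 0.22, and Atp6v0d2 by -2.14 and 0.12. None of the 8 genes was called between the letters by edgeR's test in MCA-969 or MCA-970, where 2 had an unadjusted p under 0.05 in each line.

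**Figure D5:**
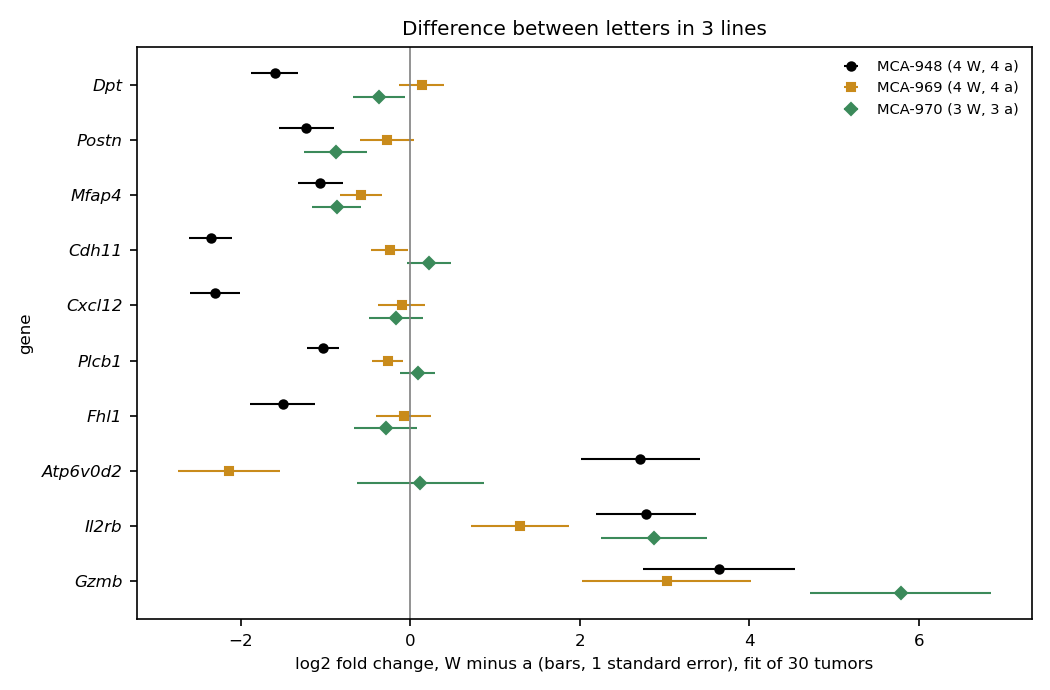
Log2 difference between W and a tumors in MCA-948, MCA-969 and MCA-970 for the 8 genes called in MCA-948 and for Il2rb and Gzmb, with bars of 1 standard error from the fit of 30 tumors. Cdh11 (-2.36) and Cxcl12 (-2.30) differ in MCA-948 and lie near 0 in the other lines, whereas the difference of Gzmb is above 0 in all 3 lines, though called only in MCA-970.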

How the data were processed

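RNA from 30 tumors of 5 MCA-induced cell lines was sequenced, and the 8 of MCA-948 are described here. The authors aligned reads to GRCm38 with STAR 2.5.3a and counted them on genes with featureCounts (1.5.2 per the submitters' notes); the deposited values are counts without normalization, and the column names say that alignments were deduplicated by molecular identifiers. The strand setting is not given in the sources used here. Removing duplicates in this way limits amplification bias, whereas the CD45 step leaves few leukocytes, so their genes rest on few counts. The table holds 48440 genes, of which GENCODE M21 names 48058, and 0 sample columns were left unused.

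Counts were filtered with edgeR's filterByExpr, scaled by TMM and tested with the robust quasi-likelihood test, with letter as group and a Benjamini-Hochberg adjusted p under 0.05. The contrast within the third run came from a factor of W, a of the second run and a of the third run. Differences between lines came from a fit of 30 tumors with a coefficient per line and letter. Library runs were read from library numbers in the labels. CPM uses TMM-scaled totals. The fits were tested on simulated counts that held no difference between library runs, so that this test does not cover the effect of run. The alternatives were limma-voom, DESeq2 or its size factors in edgeR, other filters and thresholds, run or title code as a block, and leaving out tumors. Run as a covariate in the letter comparison over 30 tumors, and leaving out the 2 MCA-969 tumors of the opposite sensitivity label, were chosen after seeing the data.

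The named genes are the called genes whose letters do not overlap and whose mean is at least 1 CPM (up to 12 per direction), called members of the lists, Ncr1, Klrb1c, Klrk1, Prf1, Gzmb, Ifng and Ptprc, and the genes with the smallest p up to 5 in a direction with fewer. Others are said to have been chosen after their values were seen. The members and lists were chosen with earlier results of these data known. The work ran in Python 3.11.15 (pandas 2.3.3, numpy 2.4.6, matplotlib 3.10.9) and R 4.3.3 (DESeq2 1.42.0, limma 3.58.1, edgeR 4.0.16).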

Additional observations from a re-analysis of the deposited data

Results flagged for a closer look

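A single tumor lay far from the other 3 of its letter in 8 of the 66 groups of 4 tumors examined. The cutoff used gives about 1 in 20 for normally distributed values. It was applied to CPM, also of genes with few counts, so that this rate does not hold for them. W-1D was far above the other W tumors for Ncr1 (1.10 CPM), Klrk1 (1.38), Prf1 (2.12), Gzmb (3.43) and Gzmc (7.37 CPM). Among the a tumors, a-2G was far above the others for Gzmc (0.315 CPM) and Gzma (0.0262 CPM, a single count), and a-1G was below the others for Cep170b (30.2 CPM). These genes of cytotoxic lymphocytes are not independent of each other.

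The difference between the letters itself differed between lines for 4 genes. In MCA-948 minus MCA-969 it was -1.73 for Dpt, -2.11 for Cdh11, -2.20 for Cxcl12 and 4.85 for Atp6v0d2 on the log2 scale, and in MCA-948 minus MCA-970 it was -2.58 for Cdh11. Each passed edgeR's interaction test in the fit of 30 tumors, and those against MCA-969 did not pass with library run as a covariate.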

How the results depend on the processing

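Over the 8 tumors 8 genes were called, and the number moved widely with the setting. It was 309 with DESeq2 (sharing all 8 genes), 42 without the filter on low counts (sharing 7), 39 with run as a block, 1 at an adjusted p under 0.01, 134 in the fit of 30 tumors (sharing 4) and 102 in that fit with run as a covariate, which was chosen after seeing the data (sharing 4). With limma-voom it was 10, with DESeq2's size factors 8, at a mean of at least 1 CPM 6 and with a log2 change of at least 1 it was 8. Leaving out a tumor gave 1 to 193. Within the third run 39 were called, 208 in a fit of its 6 tumors alone, 552 with DESeq2 and 2 to 197 without a tumor. Between runs, 2565 were called, 3238 in a fit of the 4 a tumors alone and 5 to 3148 without a tumor. Against MCA-969, 71 were called, 0 with run as a covariate, 44 without the 2 MCA-969 tumors of the opposite sensitivity label (chosen after seeing the data) and 18 to 621 without a tumor. Against MCA-970, 5 were called, 5 with run as a covariate (sharing 2) and 3 to 16 without a tumor. The median correlation of 0.983 became 0.761 over the 500 most variable genes and 0.979 to 0.984 without a tumor. The cause of these changes was not tested.

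The title codes 1G, 2D and 2G occur under both letters, with correlations of deviations of 0.270, -0.05 and 0.413. The first and the last are above 0.1, the value set beforehand as one that would pair the codes. Tumors with different codes had correlations of -0.51 to 0.39. These few values do not decide whether the codes pair tumors, and the main fits left the tumors unpaired. With the code as a replicate block 38 genes were called (sharing 5), and with run as a covariate as well 395 (sharing 8). Under the latter the difference of Ptprc turned from 0.86 to -0.40 (edgeR adjusted p = 0.772).

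The precision is limited by 4 tumors a letter, with 2 of the a tumors from another run, and by a single line. Genes of NK cells rest on few counts, 0 to 43 per tumor for Ncr1, and 13 of the 19 were below the filter. Whether the letters stand for a host or a treatment is not given in the sources used here.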
